A study of Mus musculus with 10 samples.

Results

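The genes described here encode subunits of respiratory complexes II, III and V, with cytochrome c and the inhibitor protein of complex V. They were taken from the array by symbol (Sdha to Sdhd, Cyc1, Cycs, Atpif1 and every symbol that starts with Uqcr or Atp5), which gave 28 genes of the 18138 symbols in the deposited table. These 28 genes have 34 probes, and 26 of them had a probe bright enough to be tested. Among the 28 were 3 genes of complex II, 7 of complex III, 16 with an Atp5 name, Cycs and Atpif1. Subunits of these complexes that carry other symbols were not taken.

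Total RNA of the ileum was measured on Illumina arrays for 5 mice labelled iPGC-1β and 5 wild-type littermates, FVB/N animals aged 3 to 4 months. The coactivator PGC-1β is the product of Ppargc1b, and mice called iPGC-1β are known for carrying extra PGC-1β in the gut epithelium; the labels give neither the promoter nor the line. Beyond the word littermates, no litter, sex or pooling is stated, so that p-values cover no more than the spread among the 10 arrays. The Ppargc1b probe was lower on the iPGC-1β arrays (log2 change -0.61 ± 0.19, SE, n = 5 per group, limma's adjusted p = 0.0452), no source used here gives its place in the transcript, and it does not check the labels.

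Complex II, succinate dehydrogenase, passes electrons from succinate to coenzyme Q and is the one respiratory complex that is also an enzyme of the tricarboxylic acid cycle. Complex III carries electrons from coenzyme Q to cytochrome c while it pumps protons, and complex V, the ATP synthase, lets the protons flow back through a rotating ring to make ATP. In the small intestine this supply of ATP drives nutrient and ion transport across the absorptive cells. PGC-1 coactivators are known to raise such genes through the transcription factors ERRα, NRF1 and the ETS factor GABP.

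Of the 26 genes tested, 19 rose on the iPGC-1β arrays and 0 fell (limma, adjusted p under 0.05 over all 9365 genes tested). Over all genes tested 9.88% rose and 7.41% fell. All 26 changes were above 0, from 0.14 to 1.40 on the log2 scale with a median of 0.66, beside a median of -0.05 over all genes; under median centring Atpif1 lay at -0.031. Every gene of complex II that was measured rose, 3 of 3, and so did 5 of 5 tested genes of complex III, while 11 of the 16 Atp5 genes rose and Cycs and Atpif1 did not pass the test. The median log2 change was 0.99 in complex II, 0.70 in complex III and 0.61 in the Atp5 genes. Whether these medians differ between complexes was not tested. On all 5 iPGC-1β arrays the level lay above all 5 wild-type arrays for 17 of the 26 genes, against 8.66% of all genes tested.

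**Figure D1:**
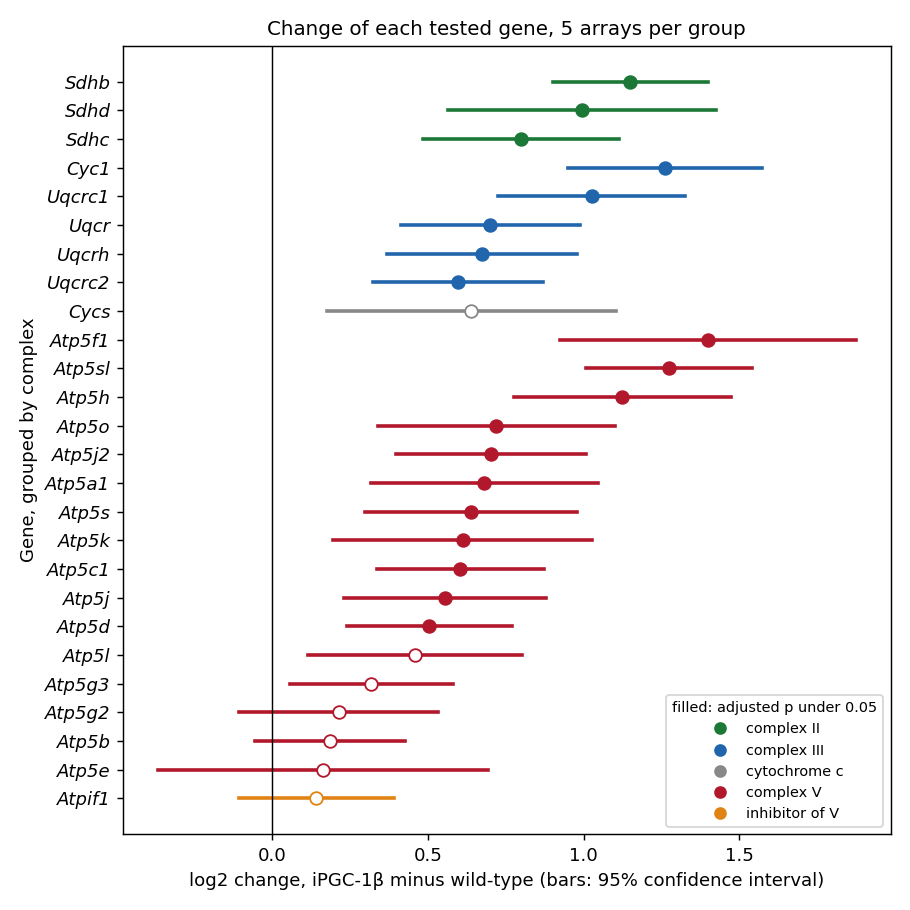
Log2 change (iPGC-1β minus wild-type, x axis) of each of the 26 tested genes with its 95% confidence interval, grouped and coloured by complex; filled points passed limma's adjusted p under 0.05. All points lie right of 0 (Atpif1 lay at -0.031 under median centring), and the 7 open ones are Cycs, Atp5l, Atp5g3, Atp5g2, Atp5b, Atp5e and Atpif1.

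The bases before the start of 6 of these genes are shown because they hold a motif of a known PGC-1 partner; Atp5g3, whose listed start lies inside the annotated gene, and Atpif1, whose match lies farther from the start, are not shown. RefSeq promoters (GRCm38.p6) were matched for 23 of the 28 genes; Atp5a1, Cyc1, Sdhc, Uqcrc2 and Uqcrq had no entry. The 250 bases before the first listed start were searched on both strands for the NRF1 palindrome (the capitals of Atp5g2), AAGGTCA (the core of the ERR element), CCGGAAGT (ETS factors) and AAGATGGCG (YY1). In each sequence, which gives the last 100 bases before the start, capitals mark the match, and no matches overlapped.
Atp5g2 (chr15:102671048-102671147, minus strand): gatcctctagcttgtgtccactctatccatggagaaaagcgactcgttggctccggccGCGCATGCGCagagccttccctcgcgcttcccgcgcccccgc
Atp5k (chr5:108434400-108434499, minus strand): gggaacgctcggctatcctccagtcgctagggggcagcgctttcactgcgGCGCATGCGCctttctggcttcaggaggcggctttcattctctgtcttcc
Atp5l (chr9:44920743-44920842, minus strand): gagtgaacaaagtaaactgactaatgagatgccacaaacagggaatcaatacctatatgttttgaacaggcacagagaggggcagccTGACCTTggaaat
Atp5h (chr11:115419920-115420019, minus strand): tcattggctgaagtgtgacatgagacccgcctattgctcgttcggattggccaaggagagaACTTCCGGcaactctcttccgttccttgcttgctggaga
Uqcr (chr10:80406822-80406921, minus strand): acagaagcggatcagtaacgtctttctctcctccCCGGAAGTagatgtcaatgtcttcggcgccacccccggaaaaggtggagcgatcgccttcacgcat
Uqcrh (chr4:116075071-116075170, minus strand): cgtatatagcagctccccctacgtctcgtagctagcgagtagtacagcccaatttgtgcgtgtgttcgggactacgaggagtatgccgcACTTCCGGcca

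Atp5g2 and Atp5k hold the NRF1 motif, as 2 of 23 genes (8.70%) and 0.781% of 27025 genes in the promoter table do. Atp5l holds the ERR core on the opposite strand, a motif found in 3 of 23 genes (13.0%; the other two are Atp5g3 and Atpif1) and in 4.05% of all. Atp5h, Uqcr and Uqcrh hold the ETS motif, found in 3 of 23 (13.0%) and in 2.93% of all. The YY1 motif was found before the first listed start in 0 of 23 and in 0.607% of all. It also lay before a second listed start of Atp5j and Atp5sl, for which no share over all genes was counted. Of the 8 genes with a match before the first listed start, 4 rose (Atp5h, Atp5k, Uqcr and Uqcrh), beside 19 of all 26 tested genes (73.1%). Whether a match goes with a rise was not tested. The promoters of Sdhb, Sdhd, Uqcrc1 and Atp5f1, genes with log2 changes of 0.99 or more, hold none of these letters in this window. These counts are descriptions of letters and not of binding.

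Complex II had 3 measured genes, and in each the groups were fully separated. Sdhb, which encodes the iron-sulfur subunit, lay at 10.84, 10.92, 10.74, 10.76 and 10.92 on the wild-type arrays 1 to 5 (log2 intensity) and at 11.90, 11.89, 12.10, 12.14 and 11.92 on the iPGC-1β arrays 1 to 5. The lowest iPGC-1β array was thus well above the highest wild-type array, and the spread within either group was small (SD 0.08 and 0.12, n = 5 each). Sdhb rose 2.22-fold, a log2 change of 1.15 ± 0.11 (SE), with limma's adjusted p = 4.63e-05. It ranked 38 by p among all genes tested.

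Sdhc and Sdhd encode the membrane anchors that hold the heme and the coenzyme Q site. Sdhd lay at 9.10, 9.42, 8.58, 8.77 and 9.45 on the wild-type arrays and at 10.28, 10.05, 10.07, 10.32 and 9.58 on the iPGC-1β arrays. Its groups were separated by a small gap, between wild-type replicate 5 and iPGC-1β replicate 5. Sdhd rose 1.99-fold (95% interval 1.48 to 2.69, limma's adjusted p = 0.00431). Sdhc lay between 11.70 and 12.18 on the wild-type arrays and between 12.53 and 13.12 on the iPGC-1β arrays, a rise of 1.74-fold (1.40 to 2.16, adjusted p = 0.00240). Sdha, which encodes the flavin-bearing catalytic subunit, was not analysed here.

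**Figure D2:**
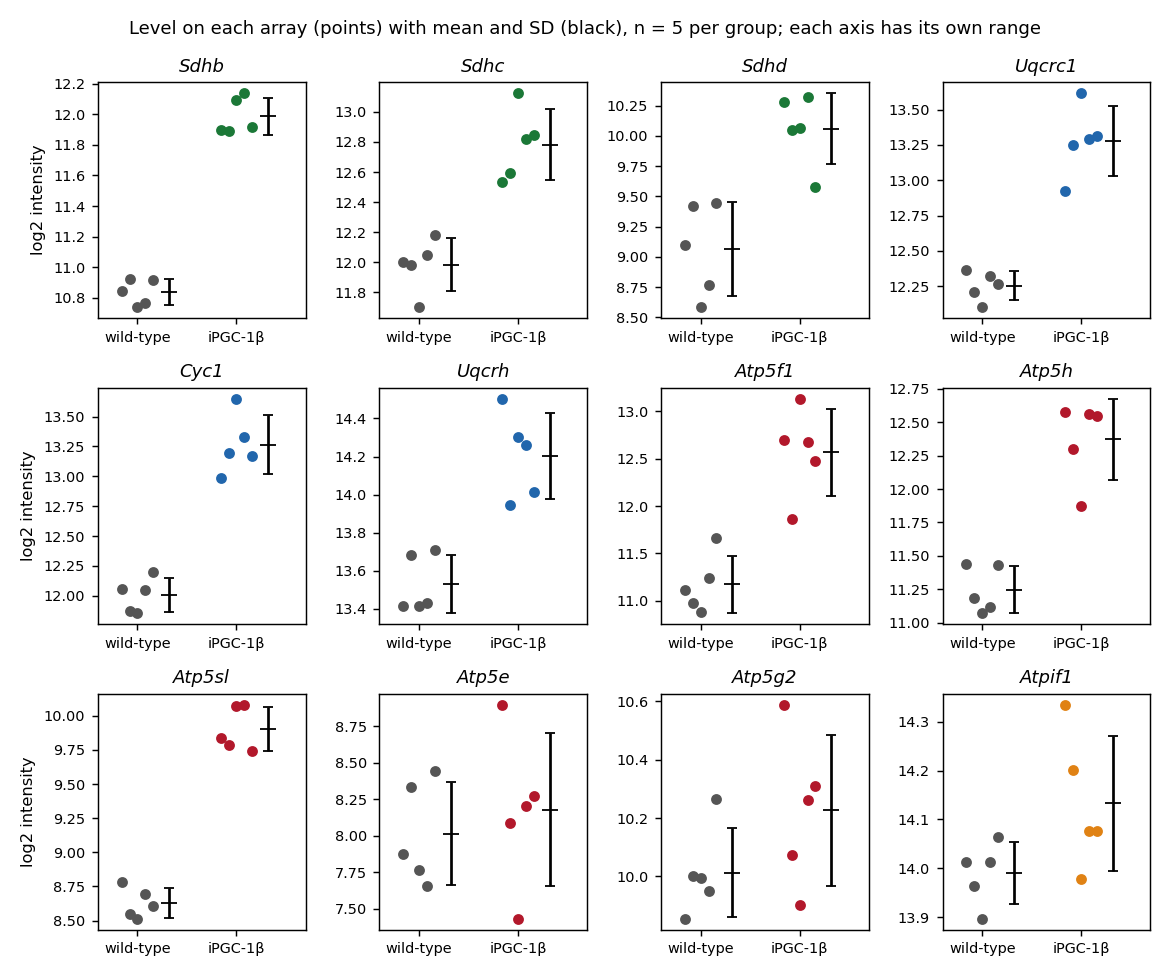
Log2 intensity on each of the 5 arrays per group for 12 genes, with the mean and SD in black; each panel has its own y axis. In Sdhb, Sdhc, Sdhd, Uqcrc1, Cyc1, Uqcrh, Atp5f1, Atp5h and Atp5sl the groups do not overlap, while in Atp5e, Atp5g2 and Atpif1 they do.

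In complex III the genes of cytochrome c1 and of the core proteins rose. Cyc1 encodes cytochrome c1, the subunit that hands electrons to cytochrome c. It lay at 12.05, 11.87, 11.85, 12.04 and 12.20 on the wild-type arrays and at 12.98, 13.20, 13.65, 13.33 and 13.17 on the iPGC-1β arrays. The highest of all 10 values was that of iPGC-1β replicate 3. Cyc1 rose 2.40-fold, a log2 change of 1.26 ± 0.14 (SE, n = 5 per group, limma's adjusted p = 9.94e-05).

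The genes of both core proteins rose. Uqcrc1, core protein 1, lay between 12.10 and 12.37 on the wild-type arrays and between 12.92 and 13.62 on the iPGC-1β arrays, a rise of 2.04-fold (95% interval 1.65 to 2.51, limma's adjusted p = 3.05e-04). Uqcrc2, core protein 2, lay between 13.03 and 13.32 and between 13.57 and 13.98, a rise of 1.51-fold (1.25 to 1.83, adjusted p = 0.00592). The 2 intervals overlap, and the difference between these genes was not tested. Uqcrh encodes the hinge protein, which helps cytochrome c dock, and rose 1.60-fold (adjusted p = 0.00562). Uqcr, now named Uqcr11, a small membrane subunit, rose 1.63-fold (adjusted p = 0.00304). In both small-subunit genes the groups did not overlap, and the call of Uqcrh was lost under median centring (adjusted p = 0.0520).

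The 2 remaining genes of complex III taken by symbol could not be read. The probe of Uqcrfs1, which encodes the Rieske iron-sulfur protein, was above background on 1 of 5 wild-type and 0 of 5 iPGC-1β arrays, and that of Uqcrq on 0 and 1. Their raw signals lay between 121.6 and 141.2 and between 112.3 and 146.9, near the median signal of the arrays (127.7 to 155.1). Both probes were not well above background, so no change is given for either gene.

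Cycs encodes cytochrome c, the soluble carrier between complexes III and IV. Its brighter probe lay at 7.23, 6.99, 6.29, 6.84 and 7.38 on the wild-type arrays and at 8.13, 7.38, 7.65, 7.45 and 7.31 on the iPGC-1β arrays. The groups overlapped, since wild-type replicate 5 lay above iPGC-1β replicates 2 and 5, and the log2 change of 0.64 ± 0.21 (SE) did not pass (limma's adjusted p = 0.0577, 95% interval 0.18 to 1.10). The dimmer probe lay between 5.82 and 6.63 and between 6.66 and 7.87, without overlap, and changed by 1.13 ± 0.25 (adjusted p = 0.00782 in a fit over all 12349 kept probes). The result for Cycs thus depends on the probe: with the mean of both, or with the stricter detection filter, it passed, as it did without wild-type replicate 5 (0.75, adjusted p = 0.0293), and it passed in 6 of 20 alternatives in all. The change of Cycs was smaller than that of Cyc1 by 0.62 on the log2 scale (two-sided exact permutation p = 0.0556, adjusted 0.167 over 3 pairs), a difference that did not pass. It passed without background correction (-0.87, exact permutation, adjusted 0.0238) and without iPGC-1β replicate 1 (-0.81, adjusted 0.0476). With the mean of all kept probes it was -0.38 (adjusted 0.5), and with wild-type replicate 5 and iPGC-1β replicate 3 both left out -0.49 (adjusted 0.6). Even the brighter Cycs probe was dim, with raw signals of 166.2 to 348.4 against 3468.6 to 10038.6 for Cyc1. Without background correction the change of Cycs itself was 0.37, beside 1.24 for Cyc1. The comparison is limited by this dim probe, and how far brightness alters it was not tested.

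Atp5j, Sdhb and Sdhc also had several kept probes. The brightest of 3 Atp5j probes changed by 0.56, the next by 1.41 and the dimmest by 0.56 on the log2 scale. For the middle probe the wild-type arrays lay between 8.14 and 8.39 and the iPGC-1β arrays between 9.31 and 9.98, a clean separation, whereas the brightest probe had overlapping groups. The 3 Sdhb probes changed by 1.15, 0.96 and 0.88, all passing, and the 2 Sdhc probes by 0.80 and 0.58 (adjusted p = 0.00271 and 0.0585 in the fit over probes). All 10 probes of these genes and of Cycs moved in the same direction. No source used here gives the place of each probe.

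**Figure D3:**
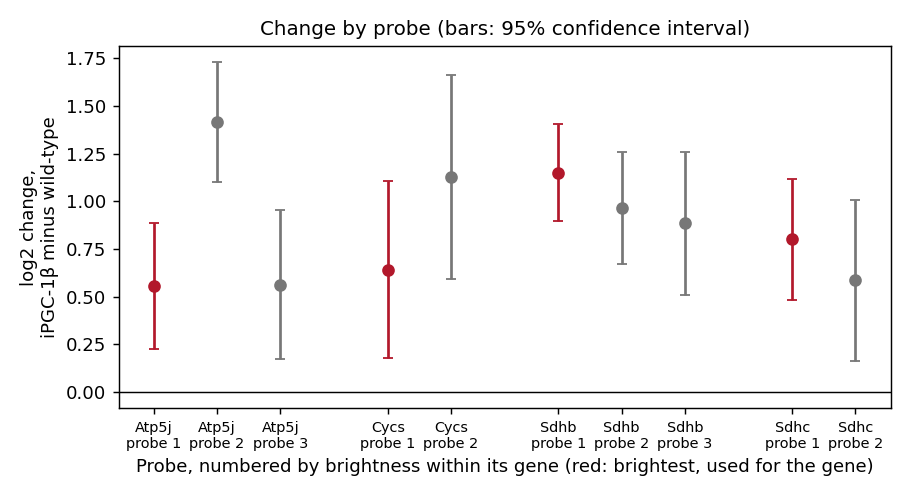
Log2 change (iPGC-1β minus wild-type, y axis) of each kept probe of Atp5j, Cycs, Sdhb and Sdhc with its 95% confidence interval; probe 1 (red) is the brightest and stands for the gene. All 10 changes are above 0, and the second Atp5j probe, at 1.41, lies above the other two of its gene.

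The 16 Atp5 genes spread over the whole range, and their parts of the enzyme are described in turn. The peripheral stalk, which keeps the catalytic head from turning with the rotor, had 4 measured genes and all 4 rose. Atp5f1, now Atp5pb, encodes subunit b of the stalk. It lay at 11.11, 10.97, 10.88, 11.24 and 11.66 on the wild-type arrays and at 12.70, 11.87, 13.13, 12.68 and 12.48 on the iPGC-1β arrays. The groups were separated, but iPGC-1β replicate 2 lay only a little above wild-type replicate 5. Atp5f1 had the largest change of the 26 genes, 2.63-fold (95% interval 1.90 to 3.66, limma's adjusted p = 8.74e-04).

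Atp5h, which encodes subunit d of the stalk, lay at 11.44, 11.18, 11.07, 11.11 and 11.43 on the wild-type arrays and at 12.58, 12.30, 11.87, 12.56 and 12.55 on the iPGC-1β arrays. The groups did not overlap, and the lowest of the raised values was that of iPGC-1β replicate 3. Atp5h rose 2.18-fold (1.71 to 2.77, adjusted p = 4.41e-04). Atp5o encodes OSCP, the joint between stalk and head, and rose 1.65-fold (adjusted p = 0.0136), with wild-type replicate 5 at 8.48 just above iPGC-1β replicate 2 at 8.44. Atp5j encodes coupling factor F6 and rose 1.47-fold by its brightest probe (adjusted p = 0.0230). That call was lost under median centring (adjusted p = 0.154) and without any 1 of wild-type replicates 1, 2 and 3 (log2 changes between 0.496 and 0.54).

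The catalytic head F1 had 5 measured genes, of which 3 rose. Atp5a1, the α subunit, rose 1.60-fold (limma's adjusted p = 0.0143) and Atp5c1, the γ subunit that forms the turning shaft, 1.52-fold (adjusted p = 0.00494). Atp5d, the δ subunit of the shaft's foot, rose 1.42-fold (adjusted p = 0.0130). In each of these the groups did not overlap. Atp5b, the β subunit that carries the catalytic sites, changed by 0.19 ± 0.11 (SE, log2, adjusted p = 0.274, 95% interval 0.96- to 1.35-fold), from a probe at the top of the signal range.

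Atp5b and Atp5g3 were among the brightest probes of the array. By raw signal Atp5b ranked between 1 and 16 and Atp5g3 between 1 and 24 of 25697 probes on every array. Raw Atp5b signals lay at 33553, 32073, 25949, 30936 and 32322 on the wild-type arrays and at 34734, 33317, 32239, 31767 and 34725 on the iPGC-1β arrays. After quantile normalization its log2 values lay between 14.68 and 14.95 on the wild-type arrays and between 14.98 and 15.10 on the iPGC-1β arrays. Across the alternatives its log2 change lay between 0.14 and 0.31 and passed in 0 of 20. On iPGC-1β replicate 2 Atp5b gave the highest signal of the array, and on replicates 3 and 5 Atp5g3 did. Whether these signals were still proportional to RNA amount was not tested.

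Atp5e, the ε subunit, showed the widest scatter of the Atp5 genes. It lay at 7.87, 8.33, 7.77, 7.66 and 8.44 on the wild-type arrays and at 8.90, 8.09, 7.43, 8.20 and 8.27 on the iPGC-1β arrays. Both the highest and the lowest of the 10 values were iPGC-1β arrays, replicates 1 and 3. The log2 change was 0.16 ± 0.24 (SE, limma's adjusted p = 0.691), with an interval of 0.78- to 1.62-fold that holds both no change and the median change of the 26 genes. Without iPGC-1β replicate 1 it was -0.016.

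Neither measured gene of the rotor ring passed. Atp5g2 and Atp5g3 are known to encode the same mature c subunit behind different targeting sequences; Atp5g1 was not analysed here. Atp5g2 changed by 0.21 ± 0.15 (SE, log2, 95% interval 0.93- to 1.45-fold, limma's adjusted p = 0.349). Atp5g3 changed by 0.32 ± 0.12 (interval 1.04- to 1.497-fold, adjusted p = 0.0903) with groups that did not overlap, and passed in 5 of 20 alternatives, among them no background correction and cyclic loess. The changes of these ring genes differed by -0.11 (Atp5g2 minus Atp5g3, two-sided exact permutation p = 0.524, adjusted 0.524 over 3 pairs), and with Atp5g3 at the top of the signal range this comparison cannot show whether they differ.

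Of the small membrane subunits beside the ring, Atp5j2 (subunit f) rose 1.63-fold with separated groups (limma's adjusted p = 0.00432, and 0.0578 under median centring). Atp5k (subunit e) rose 1.53-fold from a dim probe (adjusted p = 0.0444), and this call was lost in 14 of 19 alternatives, with a log2 change between 0.24 and 0.79, among them the omission of any 1 of wild-type replicates 1 to 4 and iPGC-1β replicates 1 to 4 (adjusted p between 0.0509 and 0.106). Atp5l (subunit g) changed by 0.46 ± 0.16 (SE, log2, adjusted p = 0.0640) and passed in 8 of 20 alternatives, among them those without iPGC-1β replicate 3 (0.55, adjusted p = 0.0342) and without wild-type replicate 5 (0.53, adjusted p = 0.0358). Subunits e and g are known for joining ATP synthases into pairs along the cristae. The genes of this pair therefore lay on either side of the threshold, both near it.

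A pair of genes carries Atp5 names without encoding a structural subunit. Atp5sl, now Dmac2, is known in human cells as an assembly factor of complex I. It lay at 8.78, 8.55, 8.51, 8.69 and 8.61 on the wild-type arrays and at 9.84, 9.78, 10.07, 10.08 and 9.74 on the iPGC-1β arrays, a gap of nearly 1 log2 unit between the groups. It rose 2.42-fold (95% interval 2.01 to 2.91, limma's adjusted p = 3.95e-05), the smallest p of the 26 genes. Atp5s, now Dmac2l, known as factor B of the synthase, rose 1.56-fold (adjusted p = 0.0140) with groups that overlapped by 1 array on each side. Without this pair 9 of 14 genes of complex V rose, with a median log2 change of 0.58.

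Atpif1 encodes the inhibitor protein IF1, which binds the head when the membrane potential is lost and stops the enzyme from consuming ATP. It lay at 14.01, 13.96, 13.90, 14.01 and 14.07 on the wild-type arrays and at 14.33, 14.20, 13.98, 14.08 and 14.08 on the iPGC-1β arrays. The groups overlapped through iPGC-1β replicate 3. The log2 change of 0.14 ± 0.12 (SE, limma's adjusted p = 0.433) was the smallest of the 26, with an interval of 0.93- to 1.31-fold, and turned to -0.031 under median centring. It differed from the change of Atp5b, the subunit that IF1 binds, by -0.04 (two-sided exact permutation p = 0.508, adjusted 0.524), a comparison limited by the Atp5b probe at the top of the signal range.

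**Figure D4:**
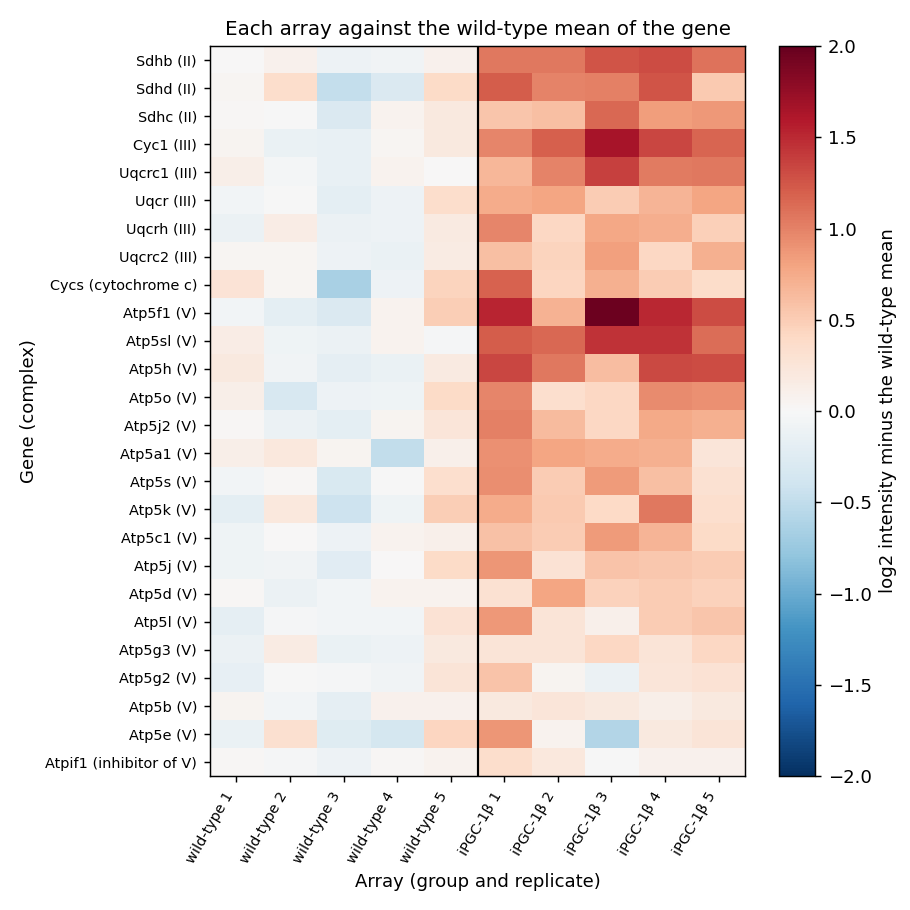
Log2 intensity of each of the 26 genes (rows, complex in brackets) on each array (columns) minus the wild-type mean of that gene; red is above and blue below it. The iPGC-1β side is red for most genes, and iPGC-1β replicate 3 has the deepest red, for Atp5f1 and Cyc1, as well as a blue cell for Atp5e.

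Single arrays stood out among these genes. Among the wild-type arrays replicate 5 gave the highest value for 20 of the 26 genes and replicate 3 the lowest for 18. Without wild-type replicate 5, 21 of the 26 genes rose, beside 10.3% of all genes tested. Among the iPGC-1β arrays replicate 1 was the highest for 12 of the 26 genes, and replicate 5 was the lowest for 7. The array of iPGC-1β replicate 3 was the highest for Atp5c1, Atp5f1, Cyc1, Sdhc, Uqcrc1 and Uqcrc2, tied with replicate 5 for Atp5g3. It was the lowest for 7 genes (Atp5e, Atp5g2, Atp5h, Atp5j2, Atp5l, Atpif1 and Uqcr). The mean of 54 cytosolic ribosomal protein genes was lower on all iPGC-1β arrays (11.49 to 11.98) than on the wild-type arrays (12.04 to 12.20). Of these 54 genes 9 fell and 0 rose, while over all genes tested 7.41% fell and 9.88% rose. Their mean was lowest on iPGC-1β replicate 3. That array also had the lowest mean of 4 T cell markers, 5.75 against 7.71 to 8.26. The part of these differences in the values above was not tested. Without both wild-type replicate 5 and iPGC-1β replicate 3, 21 of the 26 genes rose and 0 fell, while 10.2% of all genes tested rose.

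The other respiratory complexes are given for comparison, from lists chosen with earlier results known. Of 32 tested genes for structural subunits of complex I 24 rose and 0 fell, with a median log2 change of 0.91. Of 12 tested genes for subunits of cytochrome oxidase, complex IV, 8 rose and 1 fell, with a median of 0.67. The one that fell was Cox6b2, a form known from testis, at -1.03 (limma's adjusted p = 0.00840). Cox6b2 was dim, with means of 6.20 on the wild-type and 5.16 on the iPGC-1β arrays, and above background on at most 8 arrays. No difference between complexes was tested. Of 8 tested genes of a list of assembly factors of complexes II, III and V 2 rose (25.0%) and 0 fell, with a median of 0.24. Those that rose were Bcs1l, which inserts the Rieske protein into complex III, at 0.57 (adjusted p = 0.0181), and Ttc19, which clears its fragments, at 0.56 (adjusted p = 0.00587). The ATP synthase factors of this list, Atpaf2 and Tmem70, changed by 0.32 and 0.16 without passing (adjusted p = 0.271 and 0.677). The counts and the median of this list include Cyb5r3 (-0.33), which encodes a reductase and not an assembly factor. It was the only gene of the list with a change below 0.

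**Figure D5:**
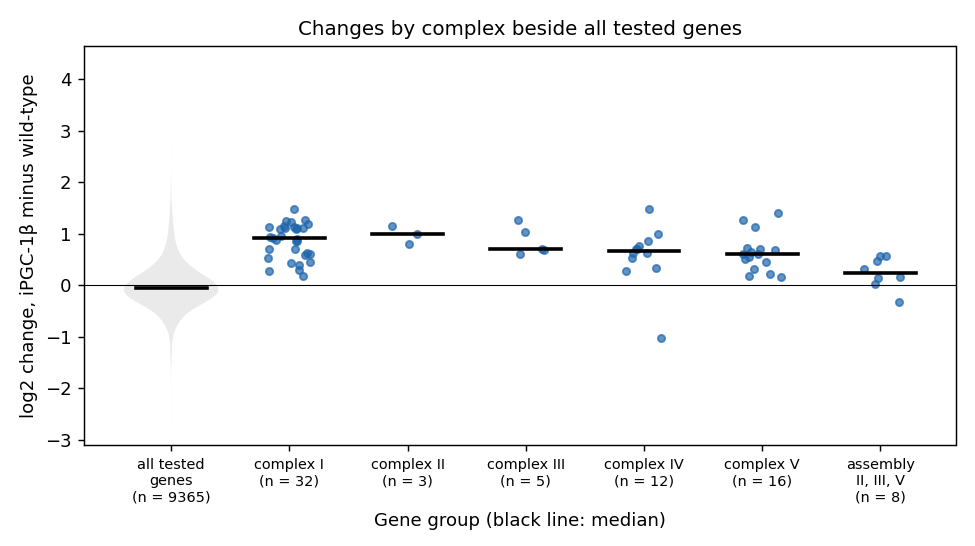
Log2 changes (iPGC-1β minus wild-type, y axis) of the genes of each complex and of the assembly factor list, with Cyb5r3 included (points). The distribution over all 9365 tested genes is in grey, and black lines are medians. The medians are 0.91, 0.99, 0.70, 0.67 and 0.61 for complexes I to V and -0.05 for all genes. Complex V here is the 16 Atp5 genes, and without Atp5s and Atp5sl its median is 0.58.

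The RNA was that of whole ileum, in which fewer cells of a type and less RNA per cell cannot be told apart. Of 12 tested enterocyte markers 5 fell and 0 rose. Their mean lay between 10.97 and 11.462 on the iPGC-1β arrays, just below the range of 11.464 to 12.15 on the wild-type arrays. The value of 11.464 was that of wild-type replicate 5, and the other wild-type arrays lay between 11.94 and 12.15. Within its group this replicate also had the lowest mean of the Paneth cell markers (10.51) and the highest of the B cell markers (8.25). Of 5 ileal markers 3 fell, including Fgf15 (-1.79, limma's adjusted p = 0.00587). Fgf15 was dim on the iPGC-1β arrays (mean 5.82) and above background on at most 9 arrays. Fabp6, which marks the ileum, was above background on all 10 arrays and changed by 0.09 (limma's adjusted p = 0.652). Its means of 14.55 (wild-type) and 14.64 (iPGC-1β) lay near that of the very bright Atp5g3 probe on the wild-type arrays (14.69). The probes of Fabp1, Fabp2 and Slc10a2 were above background on 0 arrays. Smooth muscle markers gave 0 calls of 9, with means of 9.69 to 10.08 on the wild-type and 9.55 to 10.45 on the iPGC-1β arrays. T cell and B cell markers gave 0 of 4 each (7.83 to 8.91 against 5.75 to 8.26, and 6.40 to 8.25 against 5.77 to 7.43), and adipocyte markers 0 of 3 (6.30 to 9.27 against 6.69 to 9.04). Goblet cell markers gave 1 fall of 5, Paneth cell markers 0 calls of 4 and enteroendocrine markers 1 fall of 7. The part of these cell types in the rise of the respiratory genes was not tested.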

How the data were processed

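Total RNA of 10 ileum samples was hybridised to Illumina arrays with a biotin label, per the labels' protocols, and the submitters' processing notes name GenomeStudio. The deposited table holds, per the file headers, an average signal (an intensity, not normalized) and a detection p-value for each of 25697 probes and each array; between 12370 and 12771 probes per array were above background (detection p under 0.05). The authors' own processed intensity values, deposited as a separate table, have a median of 141.7 on every array; no source used here gives their normalization. There were 0 unused columns of sample values.

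Intensities were background-corrected (normexp from the detection p-values, offset 16), quantile-normalized and log2-transformed (neqc, limma 3.58.1, R 4.3.3). Probes with a detection p under 0.05 on at least 5 arrays were kept (12349), and the brightest kept probe stood for each gene. The groups were compared by lmFit and eBayes of limma without covariates, and p-values were adjusted by Benjamini-Hochberg over 9365 genes. The design named 5 pairs of genes; those with Atp5g1 were left out, and the per-array difference of the other 3 was compared by a two-sided exact permutation test over 252 relabelings (smallest possible p 0.00794), adjusted over these. The fit was tested on simulated data. Every gene found by the symbols was to be named, and up to 3 per other list. The genes and lists were chosen with earlier results of these data known. With 5 arrays per group, their number sets the precision. Array symbols were matched to RefSeq by symbol or synonym for all 28 genes. Respiratory subunit genes have processed copies in the genome, and which copies a probe reads was not tested. Replicate numbers were given in order within a group and only name arrays.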

Additional observations from a re-analysis of the deposited data

Results flagged for a closer look

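One array stood apart from the others of its group in 1 of the 26 genes. For Atp5a1, wild-type replicate 4 lay at 10.05 (log2 intensity), while the other wild-type arrays lay between 10.59 and 10.75, and its gap was 0.773 of the range of the group, above the 0.71 of Dixon's test for 5 samples. In all 52 groups of 5 arrays were looked at, and chance alone marks about 1 in 20. The rise of Atp5a1 without that array was 0.56 on the log2 scale (limma's adjusted p = 0.0336).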

How the results depend on the processing

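The 20 alternatives were other background corrections, normalizations, filters, probe rules and variance models, the authors' processed values, each array left out, and wild-type 5 and iPGC-1β 3 left out together. The number of the genes described that rose lay between 15 (median centring) and 22 (array weights), and 0 fell in any of them. Over all genes tested 7.96% rose under median centring and 12.3% with array weights. With single arrays left out the number lay between 17 and 21, beside 8.12% to 10.3% of all genes tested. Of 519 values of single genes 478 kept direction and side of the threshold, 20 lost a call, 19 gained one and 2 reversed, Atpif1 under median centring (-0.031) and Atp5e without iPGC-1β replicate 1 (-0.016, up to 0.35 without iPGC-1β replicate 3). The median change of complex III became 0.85 with both arrays left out. The medians of complex II and of the Atp5 genes stayed between 0.87 and 1.12 and between 0.51 and 0.68. The lower change of Cycs than of Cyc1 passed without background correction (-0.87) and with the authors' values (-0.87). It was -0.38 with the mean of all kept probes and -0.49 with both arrays left out. With single arrays left out it lay between -0.81 and -0.55, passing without iPGC-1β replicate 1 (-0.81, exact permutation, adjusted p = 0.0476). This comparison is limited by the dim Cycs probe. Without iPGC-1β replicate 3 the other pairs turned to 0.0048 (Atp5g2 minus Atp5g3, -0.21 to 0.0048 over single arrays left out) and 6.4e-04 (Atpif1 minus Atp5b, -0.094 to 6.4e-04 over single arrays left out, and -0.19 under cyclic loess and -0.17 under median centring), and with both arrays left out Atp5g2 minus Atp5g3 was 0.015. Over all genes, 1105 fell with array weights, against 694, and between 421 and 792 with single arrays left out. The causes were not tested. No slide is named in the headers, so a slide block was not run. No paired analysis was run, because the array titles and labels pair no wild-type array with an iPGC-1β array. Dim probes limit what can be said of Uqcrfs1 and Uqcrq, and the smallest true changes may be missed with 5 arrays per group.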
